A study of Homo sapiens with 12 samples.

Results

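The MYC, MAX and MXD network was followed through the 7 genes MYC, MAX, MXI1, MXD1, MXD4, MNT and MLX. Its members were taken by name as every probe set of these genes, which gave 16 of the 22215 probe sets that are not controls. MAX had 5 of them, MLX 4, MXD4 3, and the other genes 1 each. All 12 arrays came from 5 established human melanoma cell lines (Malme3M, SkMel-1, SkMel-5, SkMel-19 and SkMel-28), each labelled as mutant for BRAF V600E, an activated form of a kinase that signals through MEK to ERK. Each line received 250 nM PLX4032 (vemurafenib, a small-molecule RAF inhibitor) or its solvent DMSO at 0.1% for 8 h, and SkMel-19 and Malme3M also received 1000 nM. Cells grew in RPMI medium with 10% fetal bovine serum and were treated at 70% confluency. A line gave 1 array at a dose, and the replicates are therefore the lines (n = 5 for 250 nM, n = 2 for 1000 nM), and a single line's change has no error of its own. Every line carried the BRAF mutation at every dose, and all were grown in culture.

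MYC is a transcription factor that binds DNA only as a dimer with MAX, at a short sequence called the E-box, and there raises transcription of genes for ribosome production, metabolism and cell growth. The MXD proteins (MXD1, MXI1, MXD4 and, outside the 7 genes, MXD3) and MNT compete for MAX and for the same sites, and bring in SIN3 corepressors that lower transcription. MLX stands beside MAX as a second dimer partner: it pairs with MXD1, MXD4 and MNT, and with the glucose-responsive factors MLXIP and MLXIPL. In melanoma cells with mutant BRAF, ERK signalling is known to keep MYC transcription and MYC protein up, and MYC itself has a short-lived mRNA.

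The E-box is the sequence that ties the network together, so the promoters of the members were searched for it. The motif was CACGTG, which reads the same on both strands, in RefSeq windows (GRCh38.p14) of 250 bases before to 50 bases after each transcription start. MXD4, MNT and MLX each held 1 match, which places an E-box beside the start of 3 genes whose products dimerise with each other or with MAX. The matched stretches are given 5′ to 3′ on the gene's strand, with the E-box in capitals. They are chr4:2262315-2262359 on the minus strand for MXD4, chr17:2401221-2401280 on the minus strand for MNT and chr17:42567023-42567082 on the plus strand for MLX.
MXD4: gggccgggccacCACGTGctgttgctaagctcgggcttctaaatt
MNT: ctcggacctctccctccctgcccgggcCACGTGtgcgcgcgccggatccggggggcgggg
MLX: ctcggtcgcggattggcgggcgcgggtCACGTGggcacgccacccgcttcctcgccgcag
The E-box began at position -238 from the RefSeq start in MXD4, at -193 in MNT and at -50 in MLX. The 2 windows of MAX, the 3 windows of MXI1 and the 1 window of MXD1 held no match, which says only that these letters are absent from these windows, and the MYC window was not used here. An E-box was present in 8.77% of the 27305 genes with a window and in 13.6% of the 6536 tested genes with a window.

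MYC (chromosome 8, 127735434 to 127742951, GRCh38.p14) had the largest change in the network and fell in every line. At 250 nM its signal, a linear intensity as deposited, was 100.1 in SkMel-1, 559.2 in SkMel-5, 1250.6 in SkMel-28, 336.0 in SkMel-19 and 259.2 in Malme3M. In DMSO it was 1433.8, 1707.4, 2958.0, 2444.2 and 1558.8 in the same lines. The groups did not overlap: the highest treated signal, in SkMel-28, lay below the lowest DMSO signal, in SkMel-1. The mean was 501 ± 450 at 250 nM and 2020 ± 655 in DMSO (SD, n = 5 each). On the log2(signal + 12) scale, which is used for every change below and shortens the change of dim probe sets, MYC fell by 2.37 (SE 0.29, 95% interval -3.03 to -1.71, 5.18-fold, limma adjusted p = 0.000986, lower in 5 of 5 lines). It had rank 18 among the falls of the 7831 genes tested.

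The size of the MYC fall varied between lines. The log2 change was -3.69 in SkMel-1, -2.82 in SkMel-19, -2.53 in Malme3M, -1.59 in SkMel-5 and -1.23 in SkMel-28 (SD 0.98 over the 5 lines). Treated SkMel-1 kept 0.0698 of its DMSO signal, while treated SkMel-28 kept 0.423. In DMSO the order of the MYC signals, from high to low, was SkMel-28, SkMel-19, SkMel-5, Malme3M and SkMel-1, and at 250 nM it was SkMel-28, SkMel-5, SkMel-19, Malme3M and SkMel-1. SkMel-28 was highest and SkMel-1 lowest at both doses, but with 1 array each, whether neighbours in these orders differ was not tested. In bulk RNA, fewer cells with a transcript and less of it per cell cannot be told apart.

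**Figure D1:**
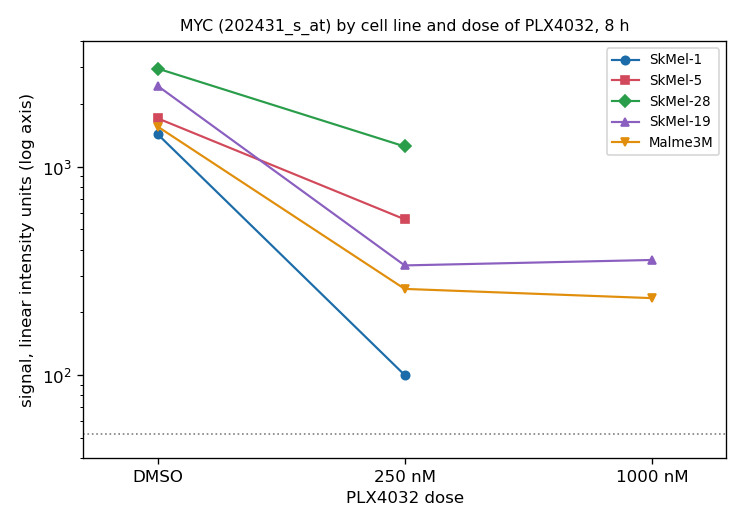
Signal of the MYC probe set (linear intensity on a log axis) against PLX4032 dose, 1 point per array and 1 line per cell line; the dotted line is 52.4, the signal of the filter on dim probe sets. Every line drops between DMSO and 250 nM, SkMel-1 the most, and SkMel-19 and Malme3M stay at the lower level at 1000 nM.

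Over all 13329 probe sets tested at 250 nM, 11.3% were called higher and 10.8% lower (adjusted p under 0.05), and the median log2 change was 0.04. Of the 16 network probe sets, 15 were bright enough to be tested: 4 were called higher and 4 lower, with a median change of -0.09. Those called higher were MXI1 and all 3 probe sets of MXD4, and those called lower were MYC and 3 of the 4 probe sets of MLX. The change had the same direction in all 5 lines for 9 of the 15, beside 33.6% of all probe sets tested. These 9 come from 4 genes: MYC, MXI1, MXD4 with its 3 probe sets and MLX with its 4.

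The antagonists did not move as a block. MXI1 and MXD4 rose, MNT did not pass the test, and MXD1 was too dim to test.

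MXI1 (chromosome 10, 110207605 to 110287365), an MXD-family repressor that dimerises with MAX, rose 1.33-fold. Its signal at 250 nM was 2728.1 in SkMel-1, 2198.6 in SkMel-5, 2438.9 in SkMel-28, 3235.8 in SkMel-19 and 2493.3 in Malme3M, against 1660.4, 1782.2, 1893.8, 2515.4 and 1962.5 in DMSO. The groups overlapped, since DMSO-treated SkMel-19 lay above treated Malme3M, SkMel-28 and SkMel-5, but each line was higher than its own control. The log2 change was 0.42 (SE 0.08, limma adjusted p = 0.0052, higher in 5 of 5 lines). SkMel-1, the line with the largest MYC fall, also had the largest MXI1 change, 0.71, while the other 4 lines lay between 0.30 and 0.36.

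MXD4 (chromosome 4, 2247432 to 2262109), another MAX-binding repressor, rose on all 3 of its probe sets. The annotation gives these probe sets to MXD4 and to MIR4800 together, a microRNA gene at 2250077 to 2250156 inside MXD4, so the signal of the pair cannot be told apart. Probe set 210778_s_at read 167.5, 92.9, 96.2, 89.8 and 121.3 at 250 nM in the order of lines used for MYC, against 74.2, 41.0, 58.3, 54.2 and 53.7 in DMSO. The groups did not overlap, and the change was 0.86 (SE 0.14, 1.82-fold, limma adjusted p = 0.0037, higher in 5 of 5 lines).

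The brightest MXD4 probe set, 212347_x_at, read 921.2, 312.2, 362.6, 468.1 and 339.0 at 250 nM in the same order of lines, against 678.2, 170.4, 201.1, 231.9 and 204.8 in DMSO. SkMel-1 stood above the other lines at both doses, so the groups overlapped, yet every line was higher than its own control (change 0.75, SE 0.10, 1.68-fold, limma adjusted p = 0.0017). Probes with this suffix can also bind related transcripts. The third probe set, 212346_s_at, read 244.3, 89.8, 130.0, 109.4 and 176.0 at 250 nM, against 47.4, 85.3, 85.8, 64.0 and 70.9 in DMSO. It showed the widest spread of the 3, with a log2 change of 2.11 in SkMel-1 and 0.07 in SkMel-5 (mean 0.91, SE 0.25, limma adjusted p = 0.0314). That call was lost when SkMel-1 was left out (0.62, adjusted p = 0.0679), and likewise without SkMel-28 (1.01, adjusted p = 0.0526), SkMel-19 (0.97, adjusted p = 0.0653) or Malme3M (0.85, adjusted p = 0.0864). It was also lost with no filter (adjusted p = 0.0696) and with no variance trend (adjusted p = 0.0515). The other probe sets of MXD4 kept their calls without any 1 line.

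MNT (chromosome 17, 2384073 to 2401060), the broadly expressed MAX-binding repressor, was not called. Its signal at 250 nM was 395.5 in SkMel-1, 502.4 in SkMel-5, 684.9 in SkMel-28, 404.3 in SkMel-19 and 683.3 in Malme3M, against 428.4, 385.3, 581.1, 416.2 and 537.1 in DMSO. It was higher in 3 lines and lower in SkMel-1 and SkMel-19 (log2 change 0.16, SE 0.10, 95% interval -0.07 to 0.39, limma adjusted p = 0.293).

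MXD1 (chromosome 2, 69915109 to 69942945), the MXD protein best known from differentiating cells, lay below the filter signal of 52.4 on all 12 arrays. It read 5.7, 23.2, 33.0, 3.8 and 7.5 at 250 nM in the order used for MYC, against 7.1, 22.6, 2.5, 27.8 and 9.5 in DMSO. It was higher in 2 lines and lower in 3, and at these signals a change was not detectable. In a fit without the filter its change was 0.02 (SE 0.35, 95% interval -0.78 to 0.81, limma adjusted p = 0.986).

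**Figure D2:**
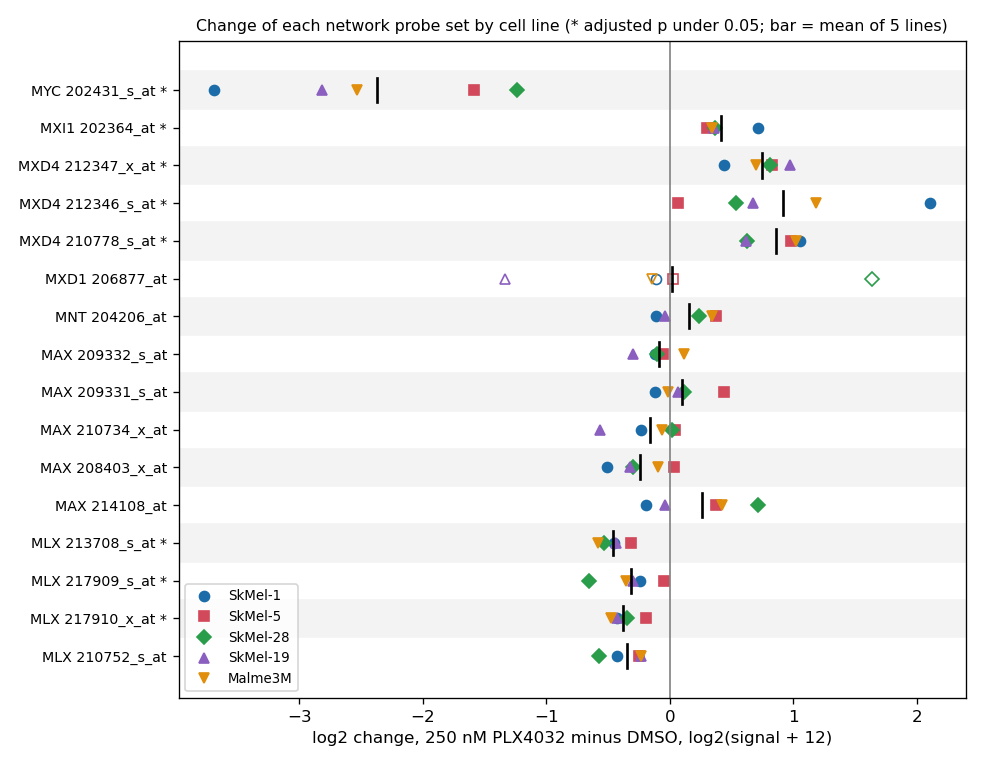
Log2 change (250 nM minus DMSO, log2(signal + 12)) of each network probe set, 1 marker per cell line, the bar the mean of the 5 lines; an asterisk marks adjusted p under 0.05 and open markers the untested MXD1. MYC lies between -3.69 and -1.23, MXI1 and MXD4 lie above 0 in every line, MLX lies below 0 in every line, and MAX and MNT straddle 0.

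MAX (chromosome 14, 65006101 to 65102695), the shared partner of MYC and of its antagonists, had 5 probe sets and none was called. The brightest, 209332_s_at, read 1486.5, 2031.2, 1360.2, 1772.0 and 2336.8 at 250 nM in the order used for MYC, against 1614.3, 2112.9, 1462.9, 2177.1 and 2152.4 in DMSO. It was lower in 4 lines and higher in Malme3M, with a change of -0.09 (SE 0.07, 95% interval -0.26 to 0.08, limma adjusted p = 0.401). The other 4 probe sets ranged from -0.24 for 208403_x_at (adjusted p = 0.181) to 0.26 for 214108_at (adjusted p = 0.322). The probe set 214108_at was under 52.4 on 8 of 12 arrays. Over the 5 probe sets the signs were mixed, and the widest interval, that of 214108_at, ran from -0.14 to 0.66, so a moderate change of MAX was not detectable on every probe set.

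MLX (chromosome 17, 42567100 to 42573203), the partner shared by MLXIP, MLXIPL, MNT and some MXD proteins, fell on 3 of its 4 probe sets and was lower in 5 of 5 lines on all 4. The brightest, 213708_s_at, read 1074.8, 1695.6, 681.0, 966.7 and 724.2 at 250 nM in the order used for MYC, against 1472.2, 2110.6, 990.2, 1310.3 and 1089.5 in DMSO. The lines differed more from each other than through the dose, so the groups overlapped. The paired change was -0.46 (SE 0.07, 1.38-fold, limma adjusted p = 0.0032).

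The other MLX probe sets had smaller changes of the same sign. Probe set 217910_x_at fell by 0.38 (SE 0.08, adjusted p = 0.0110) and 217909_s_at by 0.32 (SE 0.09, adjusted p = 0.0386), while 210752_s_at, at -0.34 (SE 0.12), missed the threshold (adjusted p = 0.0686). In 11 of 14 alternatives 210752_s_at was likewise not called. It was called with low signals raised to the filter level (adjusted p = 0.0481), no variance trend (0.0323) and all 12 arrays in 1 fit (0.0488). The call of 217909_s_at was lost without SkMel-1 (adjusted p = 0.0717), SkMel-28 (-0.23, adjusted p = 0.119), SkMel-19 (adjusted p = 0.0888) or Malme3M (adjusted p = 0.0931). It was also lost with no filter (adjusted p = 0.0580), quantile normalization (adjusted p = 0.0556) or no variance trend (adjusted p = 0.0637). Its log2 change was -0.65 in SkMel-28 and -0.05 in SkMel-5. The E-box shown above stands beside the start of MLX and of MXD4, which moved in opposite directions, and of MNT, which was not called.

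**Figure D3:**
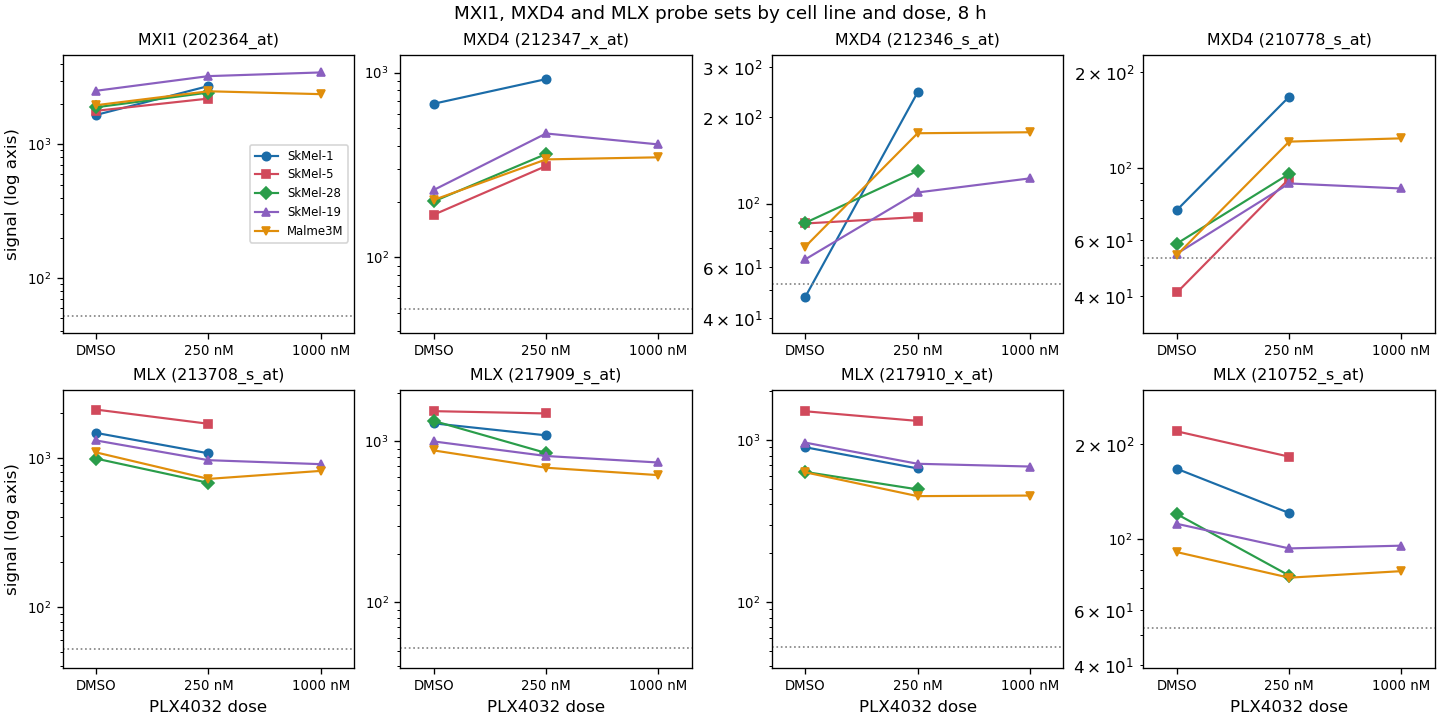
Signals (linear intensity, log axes that differ between panels) of the MXI1, MXD4 and MLX probe sets against PLX4032 dose, 1 point per array and 1 line per cell line; the dotted line is the filter signal of 52.4. MXI1 and MXD4 climb and MLX drops between DMSO and 250 nM in each line, and the 1000 nM points lie near those at 250 nM.

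The direct comparison of MYC with the other genes used the difference of their log2 changes within each line, with the brightest probe set of each gene. The MYC change minus the MXI1 change was -2.79 ± 1.12 (SD, n = 5), and for MXD4 it was -3.12 ± 0.88. The difference from MNT was -2.53 ± 0.83 and that from MAX -2.28 ± 0.97. MYC moved further down than these genes in each of the 5 lines. The difference was smallest for MLX, which itself fell, at -1.91 ± 0.98. These differences were below 0 in 5 of 5 lines, and the two-sided exact sign-flip test gave p = 0.0625 for each, the smallest p that 5 lines allow (0.0625 after Benjamini-Hochberg adjustment over the 6 other genes). MXD1 was among those 6 in the adjustment, but its signal was too low for a change to be read, so no comparison with MYC is made for it. The threshold of 0.05 cannot be reached in this test.

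The 1000 nM dose was compared in SkMel-19 and Malme3M. MYC read 2444.2 in DMSO, 336.0 at 250 nM and 356.8 at 1000 nM in SkMel-19, and 1558.8, 259.2 and 234.1 in Malme3M. The signal was low at both doses and moved up slightly in 1 line and down in the other between them. MYC fell by 2.70 at 1000 nM (SE 0.13, 6.52-fold, limma adjusted p = 0.00102) while its 250 nM change in these lines was -2.68 (SE 0.13, adjusted p = 0.000943), both against the same DMSO arrays. Within each line the change at 1000 nM was -2.74 in SkMel-19 and -2.67 in Malme3M. Leaving out a 1000 nM array was done in a fit over all 12 arrays. There the remaining array is assumed to vary like the other groups. That fit also takes 1 change at 250 nM for all 5 lines, so its values differ from those of the 6 arrays through the model too. In that fit the MYC change at 1000 nM was -2.55 (adjusted p = 0.00642) with both arrays. It was -2.51 and not called without that of Malme3M (adjusted p = 0.131), and -2.59 without that of SkMel-19 (adjusted p = 0.0483).

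At 1000 nM 4% of all probe sets tested were called higher and 4.43% lower, with a median change of 0.04. For 250 nM in SkMel-19 and Malme3M, 4.16% were called higher and 4.33% lower. Of the 15 network probe sets tested, 2 were called higher and 1 lower at each dose: the MXD4 probe sets 212347_x_at (0.76 at 1000 nM, adjusted p = 0.0308) and 212346_s_at (1.01, adjusted p = 0.0350), and MYC. In the fit over all 12 arrays 212346_s_at was not called (1.00, adjusted p = 0.0979), while 212347_x_at was called with both 1000 nM arrays (0.72, adjusted p = 0.0135) and not without that of SkMel-19 (adjusted p = 0.0807) or Malme3M (0.233). With 6 arrays both calls were lost with no filter (adjusted p = 0.0658 for 212347_x_at and 0.0927 for 212346_s_at) and with low signals raised to the filter level (0.0627 and 0.0528), 212347_x_at also with no variance trend (0.0523) and 212346_s_at with quantile normalization (0.0507). MXI1, at 0.36 (SE 0.09), was just outside the threshold with 2 lines (adjusted p = 0.0545), and so were MLX 217909_s_at (-0.46, adjusted p = 0.0554), 217910_x_at (-0.47, adjusted p = 0.0582) and 213708_s_at (-0.46, adjusted p = 0.0619). These 4, and MXD4 210778_s_at, were called in the fit over all 12 arrays (adjusted p between 0.0269 and 0.0486).

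Between 1000 nM and 250 nM, 0 network probe sets were called by limma, and 0 of the 15 had an unadjusted p under 0.05. Over all 13329 probe sets the share called was 0%, and 228 had an unadjusted p under 0.05. The MYC difference was -0.03 (SE 0.13, 95% interval -0.35 to 0.29, adjusted p = 0.999), and that of MXI1 0.01 (95% interval -0.20 to 0.22). For MXD4 the intervals were -0.43 to 0.27 on 212347_x_at, -0.53 to 0.51 on 210778_s_at and -0.41 to 0.57 on 212346_s_at. A dose effect inside these intervals was not detectable with 2 lines.

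Genes around the network were read from lists of known relatives, partners and targets, with the brightest probe set of each gene. All lists were chosen with earlier results of these data known. Of all 7831 genes tested at 250 nM, 13% were called higher and 11.5% lower, with a median change of 0.04.

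Among 6 further members of the wider family, 3 were tested, 2 were higher and 0 lower (median 0.29). MXD3, the MXD repressor of dividing cells, read 255 ± 74.2 at 250 nM and 155 ± 38.8 in DMSO (SD, n = 5 each) and rose by 0.66 (SE 0.15, limma adjusted p = 0.0154), a call that was lost without SkMel-1 (0.59, adjusted p = 0.0546) or SkMel-19 (0.54, adjusted p = 0.0528). MLXIP, the partner of MLX that responds to glucose metabolites, rose by 0.29 (SE 0.09, adjusted p = 0.0465), and its call was lost without SkMel-1, SkMel-28, SkMel-19 or Malme3M and after centring each array on its median (0.26, adjusted p = 0.0687), with no filter (adjusted p = 0.0689) or with no variance trend (adjusted p = 0.0768). MGA, a MAX partner with its own DNA-binding domains, was at 0.23 and was not called (adjusted p = 0.150). MYCN and MYCL, the other MYC-family genes, and MLXIPL were below the filter on average and were not tested.

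Of 24 tested genes that MYC is known to activate, 9 fell and 0 rose, and the other 15 were not called. Of all genes tested, 11.5% were called lower and 13% higher. The list was chosen with earlier results of these data known, so its count is a description and no independent support. The median of the 24 was -0.07, since most of them lay near 0. NOP16, a nucleolar protein of ribosome assembly, read 540 ± 228 at 250 nM and 1230 ± 326 in DMSO and had the largest fall (change -1.22, SE 0.11, limma adjusted p = 0.000293). NOLC1, a nucleolar chaperone for small ribonucleoproteins, read 1394 ± 627 at 250 nM and 2559 ± 969 in DMSO (change -0.90, SE 0.09, adjusted p = 0.000359). EIF4E, the mRNA cap-binding factor of translation, fell by 0.57 (SE 0.08, adjusted p = 0.00131), as did RCC1, the nuclear exchange factor for Ran (0.57, SE 0.10, adjusted p = 0.0052). The other 5 that fell were TFAM, RIOX2, EIF2S1, HSPE1 and FBL, between -0.52 and -0.20. The calls of FBL and HSPE1 were lost without SkMel-28, SkMel-19 or Malme3M, that of FBL also without SkMel-1 and that of HSPE1 also without SkMel-5. Both were also lost with no filter (adjusted p = 0.0786 for FBL and 0.0788 for HSPE1) and with no variance trend (0.117 and 0.105), and FBL with a pseudocount of 1 (0.0515). The 15 not called lay between -0.40 and 0.25. Among them was CDK4, a cyclin-dependent kinase gene (0.06, adjusted p = 0.468). ODC1, the first enzyme of polyamine synthesis and a classic MYC target, was at 0.25 (adjusted p = 0.145), and without SkMel-28 it was called higher (0.39, adjusted p = 0.0241). CDK4, ODC1 and the 5 genes listed after RCC1 lie outside the rule for named genes and were chosen after their values were seen. At 1000 nM, in SkMel-19 and Malme3M, 6 of the 24 were called lower and 0 higher. At 250 nM in these 2 lines the counts were also 6 and 0. These counts are of genes, while the shares for these 2 lines were worked out only over probe sets. Of all probe sets tested, 4.43% were called lower and 4% higher at 1000 nM. For 250 nM in these lines the shares were 4.33% and 4.16%.

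The E-box stood in the promoter window of 13 of the 28 listed activated genes that have a window, which is 46.4%. The share was 8.77% of all genes with a window and 13.6% of tested genes with a window. The list was made of known MYC targets, so its higher share is partly built in. Among tested members it was present in 4 of 7 that fell (57.1%) and in 7 of 14 others (50%), so these shares lay close to each other. Among those that fell, the windows of NOP16, which had the largest fall, TFAM and EIF2S1 held no match. NOLC1 and RIOX2 had no window. The matches of EIF4E and RCC1 show the motif in genes that fell, at chr4:98929173-98929232 on the minus strand and chr1:28518009-28518068 on the plus strand. EIF4E held a second match in the same window.
EIF4E: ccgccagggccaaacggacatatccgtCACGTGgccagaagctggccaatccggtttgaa
RCC1: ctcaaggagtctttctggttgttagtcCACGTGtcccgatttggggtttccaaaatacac
The motif began at position -72 from the start in EIF4E and at -190 in RCC1.

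Of 6 tested genes that MYC is known to repress, 1 rose and 0 fell (median 0.02). That 1 was CDKN1B, the cyclin-dependent kinase inhibitor p27, which read 1508 ± 535 at 250 nM and 931 ± 315 in DMSO (change 0.67, SE 0.09, limma adjusted p = 0.0016). CDKN1A, the kinase inhibitor p21, was at -0.37 and lower in 5 of 5 lines without passing the test (adjusted p = 0.0876); it and MGA were also chosen after their values were seen. The E-box was in 0 of the 7 listed repressed genes with a window.

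Among 4 tested targets of MLX and MLXIP, 1 rose and 2 fell, with a median of -0.61. TXNIP, the inhibitor of thioredoxin and of glucose uptake, rose by 0.99 (SE 0.19, limma adjusted p = 0.0074). HK2, the hexokinase that starts glycolysis, read 832 ± 983 at 250 nM and 1871 ± 1024 in DMSO and fell by 1.54 (SE 0.21, adjusted p = 0.0016). PFKFB3, which makes an activator of glycolysis, fell by 0.67 (SE 0.17, adjusted p = 0.0233), and this call was lost without SkMel-1, SkMel-28 or Malme3M. An E-box was present in 3 of the 4 listed genes with a window, beside 13.6% of tested genes with a window. Among them were HK2 at chr2:74834949-74835008 and PFKFB3 at chr10:6202797-6202856, both on the plus strand. HK2 held a second match in the same window.
HK2: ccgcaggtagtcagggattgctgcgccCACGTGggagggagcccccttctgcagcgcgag
PFKFB3: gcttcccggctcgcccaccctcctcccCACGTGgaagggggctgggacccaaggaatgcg
TXNIP and HK2 moved in opposite directions, so the list had no common sign.

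Genes for proteins that act with MYC or its antagonists mostly did not pass the test. The same holds for all 7831 genes tested at 250 nM, of which 13% were called higher and 11.5% lower. Of 11 tested MYC cofactors 1 rose and 2 fell (median -0.09): RUVBL1, a helicase-like subunit of chromatin complexes, fell by 0.66 (SE 0.10, limma adjusted p = 0.0024), SKP2, an F-box protein that marks targets for degradation, fell by 0.32 (adjusted p = 0.0282), and the acetyltransferase gene KAT5 rose by 0.35 (adjusted p = 0.0152). The SKP2 call was lost without SkMel-1, SkMel-28 or SkMel-19, and that of KAT5 without SkMel-1. Of 8 tested SIN3 and NCOR corepressor genes, through which MXD proteins repress, 0 rose and 1 fell (median 0.08), the deacetylase gene HDAC2 (change -0.43, adjusted p = 0.0283), whose call was lost without SkMel-1, SkMel-19 or Malme3M. Of 11 genes that set MYC protein stability 1 rose and 1 fell (median 0.07). These were PPP2R5A, a subunit of a phosphatase that acts on MYC (change 0.57, adjusted p = 0.0323), and USP36, a nucleolar deubiquitinase (change -0.44, adjusted p = 0.0334). The call of USP36 was lost without any 1 of the 5 lines, and that of PPP2R5A without any but SkMel-5. Of 8 tested regulators of MYC transcription, 1 rose and 2 fell (median 0.02): MAZ rose by 0.33 (adjusted p = 0.0292), TCF7L2 fell by 0.41 (adjusted p = 0.0337) and CNBP fell by 0.29 (adjusted p = 0.0157). All 3 calls were lost without SkMel-28 or SkMel-19, and those of MAZ and TCF7L2 also without SkMel-5 or Malme3M. With no filter HDAC2, PPP2R5A, USP36 and TCF7L2 were not called (adjusted p between 0.0503 and 0.0777), and with no variance trend HDAC2, PPP2R5A, TCF7L2 and CNBP were not (0.0555 to 0.0607). USP36 was also not called with low signals raised to the filter level (0.0579).

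**Figure D4:**
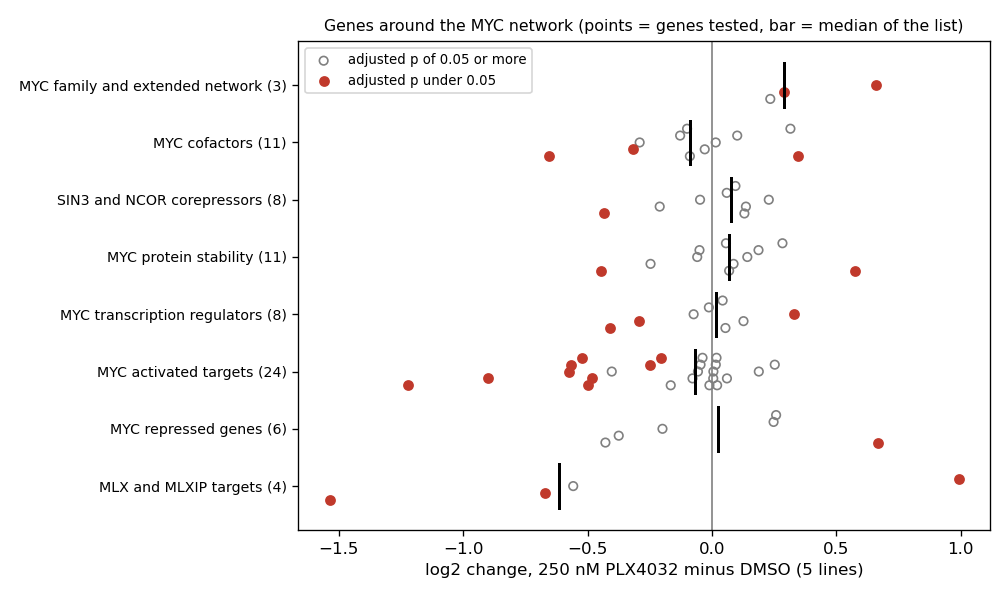
Log2 change at 250 nM (250 nM minus DMSO, 5 lines) of the tested genes of each list, 1 point per gene, filled where the adjusted p is under 0.05, with a bar at the list's median; the number tested is in brackets. The 9 filled points among the 24 MYC activated targets all lie below 0, between -1.22 and -0.20, and the other 15 lie around 0.

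The genes whose pattern was most like that of MYC were found by Pearson correlation over the 12 arrays after each line's mean was subtracted. They were PUM3 (r = 0.998), MSH6 (0.997), CTPS1 (0.995), TLCD3A (0.994) and NCLN (0.993). Much of each r comes from the treatment difference that all share, so the values describe likeness and carry no test. PUM3, a nucleolar RNA-binding protein gene, changed by -1.13 in SkMel-1, -0.85 in SkMel-19, -0.80 in Malme3M, -0.47 in SkMel-5 and -0.37 in SkMel-28, the order of the lines for MYC. MSH6, a DNA mismatch repair gene, ran from -1.30 in SkMel-1 to -0.44 in SkMel-28, and CTPS1, which makes CTP for nucleic acid synthesis, from -1.41 to -0.43. Mean changes of the 5 ran from -0.39 for NCLN to -0.91 for CTPS1. Since they were chosen for their likeness to MYC on these arrays, their falls and their order of lines are part of the choice and are given as a description.

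Within the network, the probe sets of MLX had r between 0.78 and 0.97 with MYC, MXD4 between -0.95 and -0.88, and MXI1 -0.96, over the same 12 arrays. MNT was at -0.46 and MAX between -0.28 and 0.78. Here too much of each r comes from the treatment difference, so the values largely restate the changes given above and carry no test.

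**Figure D5:**
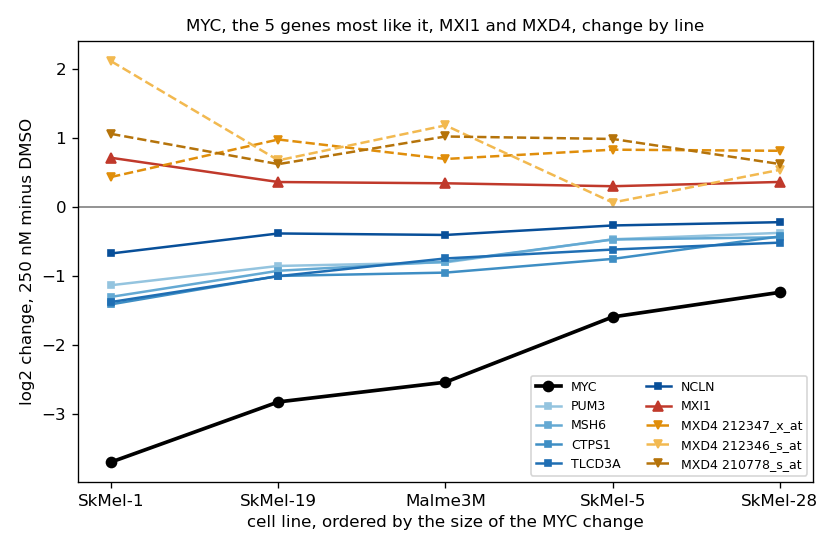
Log2 change (250 nM minus DMSO) by cell line, with the lines ordered by the size of the MYC change, for MYC, the 5 genes most like it, MXI1 and the MXD4 probe sets. The 5 genes, chosen for this likeness, have their largest falls in SkMel-1 and their smallest in SkMel-28, MXI1 is highest in SkMel-1, and the MXD4 probe sets follow no common order.

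The arrays were alike in scale: the median signal lay between 102.5 and 130.4, and the mean after removing 2% at each end was 500.1 on each. The log2 ratio of 3′ to 5′ control probes, a sign of RNA quality, changed by -0.01 ± 0.07 for GAPDH and -0.02 ± 0.08 for ACTB (250 nM minus DMSO, SD, n = 5). All 7 melanocyte markers with a probe set were above the filter on average, with summed signals from 41528 to 65657 at 250 nM and from 31538 to 61474 in DMSO, although TYRP1 was below it on some arrays (lowest 18.7). Of 7 fibroblast markers 4 were above it on average (sums 621 to 2066 at 250 nM and 624 to 1764 in DMSO). COL1A1 and LUM were above it on all 12 arrays, DCN on 9 and COL1A2 on 5, while THY1 was above it on 6 with a lower mean and COL3A1 and PDGFRB on 0. Of 5 epithelial markers only CDH1 was above it (sums 113 to 4849 at 250 nM and 49.7 to 4567 in DMSO) and of 4 blood markers only LCP1 (84.9 to 2303 at 250 nM and 70.7 to 2254 in DMSO), while EPCAM, KRT5, PTPRC and CD14 were below it. The part of these markers in the network's changes was not tested.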

How the data were processed

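Biotin-labelled cRNA was hybridised to 12 Affymetrix arrays, per the labels' protocols. The deposited values are linear signal intensity per probe set, made by the authors with GCOS, per the submitters' processing notes, and the version is not stated. The treatment of background and the summary of probes are not stated in these sources. Values were used as deposited, as log2(value + 12), where 12 is the rounded 20th percentile of all values. Of 22277 probe sets, 62 controls were set aside, 19064 carried 1 gene symbol, 1043 several and 2108 none in the platform annotation, and of those with 1 symbol 19052 had an Entrez ID in the table of RefSeq genes (0 symbols updated). Testing was limited to 13329 probe sets with a mean log2 value at or above the 40th percentile, which was 6.01 (signal 52.4).

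The fits used limma 3.58.1 in R 4.3.3, with cell line as a block, a variance trend and Benjamini-Hochberg adjustment over all probe sets tested, at a threshold of 0.05. The comparison of 250 nM with DMSO had 10 arrays and 4 residual degrees of freedom, the others 6 arrays of 2 lines and 2 degrees of freedom. A fold is on the log2(value + 12) scale. The cell line in the labels pairs the arrays. With group means removed, the 250 nM and DMSO arrays of 1 line correlated at 0.885 to 0.909, and arrays of different lines at -0.138 at most. Removing the means by itself pushes the values between lines below 0, so their negative sign says nothing on the pairing. The labels give no separate cultures within a line, and the number of arrays limits the precision.

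The members and the gene lists were chosen with earlier results of these data known. All member probe sets are named, and of each list up to 4 called genes with the largest change or else the 1 with the smallest p, and the 5 genes most like MYC. Genes of the lists without a probe set of their own were not analysed here. Promoter windows come from RefSeq (GRCh38.p14). The steps were tested on simulated data. The alternatives were other pseudocounts (1 and 50), low signals raised to the filter level, no filter, a filter at the 60th percentile, median centring, quantile normalization, no variance trend, no block, 1 probe set per gene, 1 fit over all 12 arrays and leaving out arrays. Python 3.11.15, scipy 1.17.1 and matplotlib 3.10.9 were used for the exact test and the figures.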

Additional observations from a re-analysis of the deposited data

Results flagged for a closer look

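The values of the 5 lines were examined for a single line far from the rest in 48 groups, and 2 stood apart. Chance alone gives about 1 in 20, so 2 of 48 is no more than that rate. The MXI1 change at 250 nM was 0.71 in SkMel-1, while the other 4 lines lay between 0.30 and 0.36, so the gap to the next line was 0.850 of the whole range. The DMSO signal of MXD4 212347_x_at was 9.43 on the log2 scale in SkMel-1, while the other 4 lines lay between 7.51 and 7.93 (gap 0.782 of the range). In both cases the gap passed 0.71, the limit of Dixon's test for 5 values. Without SkMel-1 the MXI1 probe set and MXD4 212347_x_at kept their calls at 250 nM, while MXD4 212346_s_at lost its call (0.62, adjusted p = 0.0679).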

How the results depend on the processing

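MYC kept its direction under every alternative tried in the comparisons with DMSO. It lost its call only without the replicate block (-2.37 at 250 nM, adjusted p = 0.223, -2.68 in SkMel-19 and Malme3M, adjusted p = 0.504, and -2.70 at 1000 nM, adjusted p = 0.482) and at 1000 nM in the fit over all 12 arrays without that of Malme3M. Leaving out 1 line moved its 250 nM change between -2.66 and -2.04, and its 1000 nM change, in a fit over all 12 arrays with 1 left out, lay between -2.59 and -2.51. At 250 nM 2943 probe sets were called. The count was 10 without the replicate block, which leaves differences between lines in the error, and between 1805 (without Malme3M) and 2598 (without SkMel-5) with 1 line left out; without SkMel-19 it was 1874. At 1000 nM the count of 1124 became 521 with low signals raised to the filter level, 557 with no filter, 494 with no variance trend and 0 with no replicate block. With all 12 arrays in 1 fit it was 1319, and in that fit 23 without the Malme3M array and 433 without that of SkMel-19. For 250 nM in these lines, 1131 became 491, 562, 478 and 0 under the same 4 alternatives, and leaving a line out could not be fitted. Of the MYC activated targets, 9 were lower and 0 higher at 250 nM; the counts were 0 and 0 with no replicate block, and with 1 line left out 7 to 8 were lower and 0 to 1 higher, the 1 being ODC1 without SkMel-28. Median centring changed the share of calls that were higher at 250 nM to 42.6%, against 51.0%. Over all results and alternatives 1212 values kept their direction and call (or, for counts, lay within 1.5 times), 137 lost a call, 14 gained one and 16 changed sign. Those 16 all concern changes that were not called. In the main fit the largest of them was 0.20, for MAX 210734_x_at between the doses. At 1000 nM against DMSO, MAX 214108_at was -0.023 with median centring and -0.084 with quantile normalization. Leaving out a 1000 nM array gave a range of -0.0082 to 0.082 for that probe set, -0.049 to 0.51 for MAX 209331_s_at and -0.17 to 0.098 for MAX 210734_x_at. Between the doses, MXI1 was -0.00012 with median centring and -0.022 with all 12 arrays, and MLX 217910_x_at 0.00018 with quantile normalization. The leave-out ranges there were -0.24 to 0.20 for MAX 208403_x_at, -0.15 to 0.41 for 209331_s_at, -0.12 to 0.071 for 209332_s_at, -0.010 to 0.26 for 210734_x_at, -0.11 to 0.064 for MXI1, -0.17 to 0.11 for MXD4 210778_s_at, -0.077 to 0.0086 for 212347_x_at and -0.073 to 0.12 for MLX 213708_s_at. Without a stated construction above, the cause was not tested. With 5 lines, and 2 for 1000 nM, small changes of MAX and MNT were not detectable, and MXD1 was limited by its low signal.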
